A study of Mus musculus with 4 samples.

Results

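The nuclear genes for the subunits of oxidative phosphorylation were examined in chromatin accessibility data from sorted nuclei of mouse heart. Members were chosen by gene symbol alone: protein-coding GENCODE genes of mm10 beginning with Nduf and a letter a, b, c, s or v before a digit, *Sdha* to *Sdhd*, symbols beginning with Uqcr, Cox4 to Cox8, and Atp5. The rule found 84 of 21754 protein-coding genes. It took in *Cox7a2l* and *Atp5s*, whose products are not regarded as core subunits, and *Ndufa4* and *Ndufa4l2*, which are described here with complex IV. *Atp5o* has a second, longer record of 242585 bp, without a peak at any start in either list, and the shorter record was used.

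All mice were C57BL/6 males of 8 to 12 weeks that carried both the NuTRAP reporter and Cdh5-Cre, so that GFP labels nuclei of the lineage in which the *Cdh5* promoter has driven Cre. The GFP+ (endothelial) and GFP- (non-endothelial) groups were the labelled and unlabelled nuclei of whole hearts, and neither carried a treatment. The sort kept single nuclei with a 2n content of DNA, so the GFP- group is a mixture of the unlabelled nuclei that passed this gate, and nuclei of higher DNA content are in neither group. ATAC-Seq, which reads where the Tn5 transposase can cut DNA, was done on 2 replicates of each group with 100 to 50000 nuclei, but each group has 1 list of peaks, called from both replicates together. No comparison below therefore has a replicate check, none has a p-value, and the intervals given cover the spread or counting of genes and peaks only. The GFP- list held 78912 peaks over 52.1 Mb and the GFP+ list 65008 peaks over 41.8 Mb; the read depth behind them is not analysed here. As a check of the labels, all 10 endothelial marker genes had a peak at a start in the GFP+ list against 7 in the GFP- list. Of these 7, 6 ranked higher in the GFP+ list, such as *Cdh5* at rank 85.3 against 17.96. *Tek* went the other way, at 54.1 in the GFP+ against 81.1 in the GFP- list. Fibroblast markers numbered 2 of 8 in the GFP+ list against 6, pericyte and smooth muscle markers 3 of 6 against 6, and leukocyte markers 1 of 5 in each. Cardiomyocyte markers had such a peak in 8 of 8 cases in both lists. Their ranks ran from 82.7 to 100.0 (median 99.6) in the GFP- list and from 79.6 to 100.0 (median 92.7) in the GFP+ list. Of these markers 5 ranked lower and 3 higher in the GFP+ list, where 71.1% of all genes ranked lower.

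Oxidative phosphorylation passes electrons from NADH and succinate through complexes I to IV to oxygen and uses the resulting proton gradient to make ATP at the ATP synthase. A few subunits are encoded by mitochondrial DNA, which the lists leave out, and all others by genes spread over the nuclear chromosomes. Heart muscle depends on this pathway for its beat and replaces some subunits of complex IV (cytochrome c oxidase) by isoforms made mainly in heart and skeletal muscle.

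For each gene the peak of largest area within 250 bp of any annotated start (the TSS peak) was taken from each list. Area is the significance signal that the peak caller sums over a peak, and it was turned into a percentile rank within its own list, from 0 for the weakest to 100 for the strongest peak. A TSS peak was present for 80 of 84 members (95.2%) in the GFP- list and 78 (92.9%) in the GFP+ list, where 61.8% and 59.8% of all protein-coding genes had one. In both lists it was present for 78 (Wilson 95% interval 85.3 to 96.7%), against 58.8% of all genes. The 2 members with a TSS peak in the GFP- list alone were *Cox4i2* and *Ndufa4l2*, 0 had one in the GFP+ list alone, and 4 had none in either. Of all 21754 genes, 642 had one in the GFP- list alone, 199 in the GFP+ list alone and 8111 in neither.

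Where members had TSS peaks, these ranked near the level of all genes with such a peak and stood at the same places in both populations. The median rank was 91.0 (95% interval of the median 88.3 to 92.9) in the GFP- list and 91.2 (88.1 to 92.7) in the GFP+ list, beside 90.5 and 89.3 over all genes that had such a peak. Ranks of 90 or more were held by 45 of 80 members with a peak in the GFP- list (56.2%) and 44 of 78 in the GFP+ list (56.4%), of which 43 were the same genes, against 51.9% and 47.6% of all protein-coding genes with a peak in that list. All 78 pairs of TSS peaks overlapped, as did 12589 of 12802 pairs over all genes. The summits of a pair lay within 100 bp of each other for 75 of 78 members, against 89.5% of all genes. The median gap was 5 bp, beside 10 bp over all genes. The median distance from summit to nearest start was 35.5 bp in the GFP- and 31.5 bp in the GFP+ list, beside 56 bp in each over all genes. The 3 members with wider gaps were *Cox6b2* (507 bp), *Uqcrh* (319 bp) and *Atp5l* (266 bp).

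Between the populations the ranks differed little. The difference, GFP+ minus GFP-, had a median of -0.28 points (95% interval -0.75 to -0.032) over the 78 members and -0.73 over all genes. It stayed within 5 points for 74 of the 78 members, against 10253 of all 12802 genes with a peak in both lists. In the GFP+ list 50 of 78 members ranked lower, a share below the 71.1% of all genes. Only *Cox6b2* was lower by more than 10 points (8.53% of all genes) and 0 members were higher by more than 10 points (2.56% of all genes). The direction of these small differences depends on the length of the lists: with the GFP- list reduced to its 65008 largest peaks, 16 of 78 members ranked lower in the GFP+ list, against 36.4% of all genes. TSS peaks were longer in the GFP- list for 50 of 78 members (65.0% of all genes) and larger in area for 66 (87.2% of all genes), with a median ratio of areas, GFP+ over GFP-, of 0.898 (0.877 to 0.922) beside 0.863 over all genes.

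**Figure D1:**
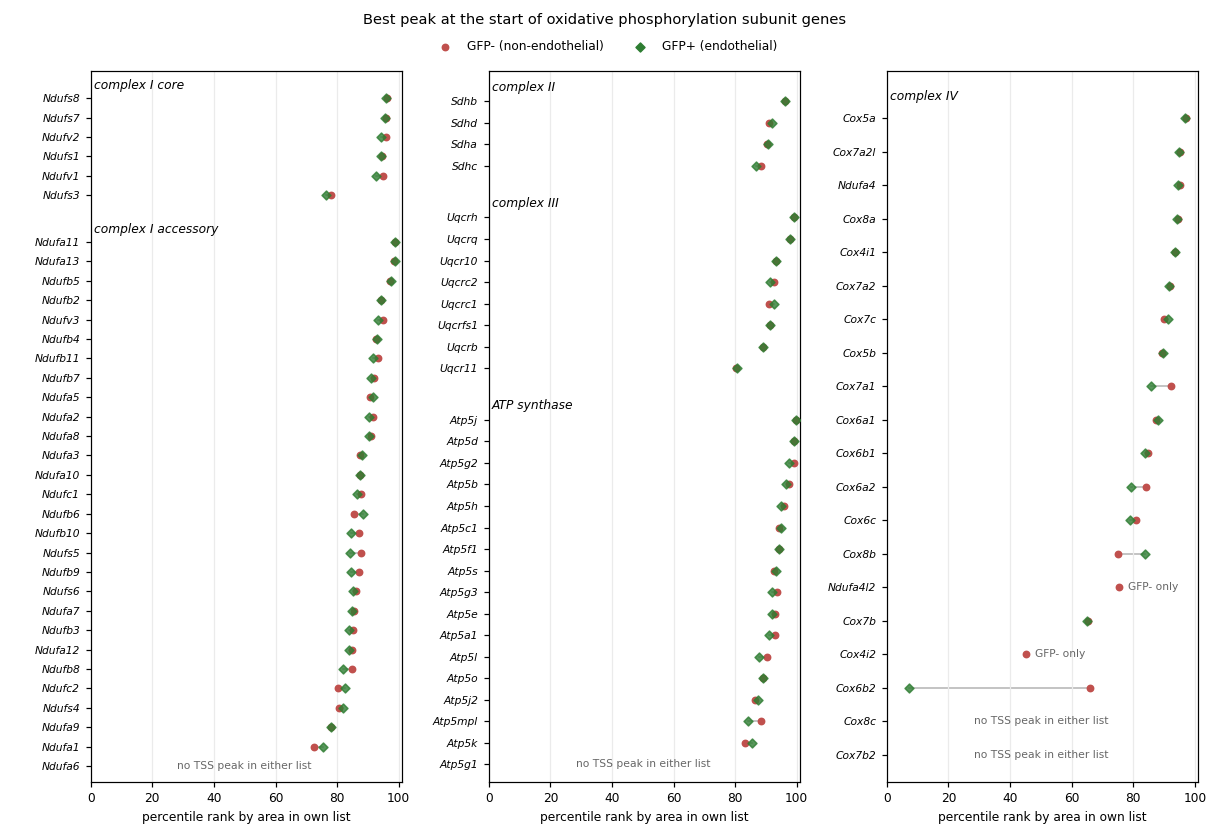
Percentile rank by area (horizontal axis, 0 to 100) of the best TSS peak of the members shown, grouped by complex, with a circle for the GFP- list, a diamond for the GFP+ list and a line between them. Nearly all symbols lie between 70 and 100 with the pair close together; *Cox6b2* shows a wide gap, 2 members have a circle only, and 4 have no symbol.

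The core subunits of complex I form the path of electrons from NADH to the quinone. All 7 ranked lower in the GFP+ list, as did 71.1% of all genes, with differences from -2.11 to -0.055 points. *Ndufv1*, the flavin-binding subunit that receives electrons from NADH, ranked 94.8 in the GFP- and 92.7 in the GFP+ list, the widest gap of these. *Ndufv2* had values of 96.0 and 94.3. *Ndufs8* was the highest in both lists, at 96.1 and 96.0, followed by *Ndufs7* at 96.0 and 95.7. *Ndufs1*, the largest core subunit, stood at 94.5 and 94.4. *Ndufs3* lay apart from the other core genes, at 78.1 and 76.5, and its start is 38 bp from that of *Kbtbd4* on the opposite strand.

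Of the 28 accessory subunits of complex I, which surround the core and help to assemble it, 27 had a TSS peak in both lists and *Ndufa6* in neither. Their median ranks were 87.6 and 87.4, with 17 lower and 10 higher in the GFP+ list, where 71.1% of all genes ranked lower. All 27 stayed within 5 points, as did 10253 of all 12802 genes with a peak in both lists. *Ndufa11* (98.8 in the GFP- and 98.7 in the GFP+ list) and *Ndufa13* (98.65 and 98.65) were the strongest. Their GFP- peaks held, or reached within 250 bp of, starts of *Vmac* and of *Tssk6* and *Yjefn3*. The summits lay 686 and 710 bp from the nearest start of *Ndufa11* and *Ndufa13* in the GFP- list, and 699 and 710 bp in the GFP+ list. *Ndufa1*, an X-linked subunit of the membrane arm, was the weakest, at 72.4 and 75.3, and *Ndufa9*, which lies near the quinone pocket, followed at 77.9 and 77.9. The widest differences were those of *Ndufs5*, from 87.7 in the GFP- to 84.04 in the GFP+ list, *Ndufb8*, from 84.8 to 81.8, and, in the other direction, *Ndufa1* and *Ndufb6*, from 85.6 to 88.3. *Ndufs6*, a subunit of the NADH-binding arm, ranked 86.2 and 85.2, and *Ndufv3*, of the same arm, 94.8 and 93.3. In the membrane arm *Ndufb5* ranked 97.2 and 97.6, and *Ndufb2* 94.1 and 94.3. The X-linked *Ndufb11* had ranks of 93.4 and 91.8, against the low pair of the X-linked *Ndufa1*. *Ndufs4*, whose gene spans 100464 bp, had a TSS peak at rank 80.7 and 81.8.

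Complex II (succinate dehydrogenase) is the enzyme shared with the citric acid cycle, and all its subunits are nuclear. The flavoprotein gene *Sdha* ranked 90.2 in the GFP- and 90.7 in the GFP+ list. The iron-sulphur subunit *Sdhb* was the highest, at 96.3 in both. The membrane anchors were *Sdhc*, at 88.2 and 86.9, and *Sdhd*, at 91.1 and 92.0. *Sdhc* was thus the only member of complex II that ranked lower in the GFP+ list, and the 4 differences lay between -1.36 and 0.87 points. Complex III (ubiquinol-cytochrome c reductase) had 8 members, all with TSS peaks in both lists. In the GFP+ list 4 ranked lower and 4 higher, where 71.1% of all genes ranked lower. The core protein gene *Uqcrc1* ranked 90.9 and 92.7, and *Uqcrfs1*, the Rieske iron-sulphur protein, 91.4 and 91.3. *Uqcrh*, the hinge protein, was the second highest member of all, at 99.2 and 99.1, and its start lies 198 bp from that of *Lrrc41*. *Uqcr11* was the lowest of the complex, at 80.2 and 80.6. Between them lay the other core protein gene *Uqcrc2*, at 92.6 and 91.4, and the small subunits *Uqcrq*, at 97.8 and 97.9, *Uqcr10*, at 93.27 and 93.26, and *Uqcrb*, at 88.9 and 89.1.

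Among the ATP synthase genes was the highest member of both lists. *Atp5j*, coupling factor 6, ranked 99.7 in each; its start lies 93 bp from that of *Gabpa*, which encodes an ETS transcription factor, and both share the peak. *Atp5d*, the delta subunit, had ranks of 99.0 and 99.0, and a start of it lies 16 bp from one of *Cbarp*. The catalytic genes *Atp5b* and *Atp5a1* stood at 97.4 and 96.6, and at 93.0 and 91.0, in the GFP- and GFP+ lists. The proton-carrying c subunit is made from 3 genes for the same mature protein. *Atp5g2* ranked 99.1 in the GFP- and 97.4 in the GFP+ list, *Atp5g3* 93.7 and 92.1, and *Atp5g1* had no TSS peak. Both c-subunit genes with a peak were thus a little lower in the GFP+ list. The central stalk, which turns inside the catalytic head, includes *Atp5c1*, at 94.33 and 94.997, and *Atp5e*, at 92.9 and 91.9. Of the peripheral stalk, which holds the head still, *Atp5f1* ranked 94.39 and 94.36, *Atp5h* 95.8 and 94.7, and *Atp5o* 88.996 and 88.999, so that only *Atp5h* of these 3 differed by more than 1 point. The small membrane subunits *Atp5k*, *Atp5l* and *Atp5j2* ranked from 83.3 to 90.3 in the GFP- and from 85.3 to 87.9 in the GFP+ list. *Atp5mpl*, a further small membrane subunit, had the widest difference of the complex, from 88.3 to 84.1.

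**Figure D2:**
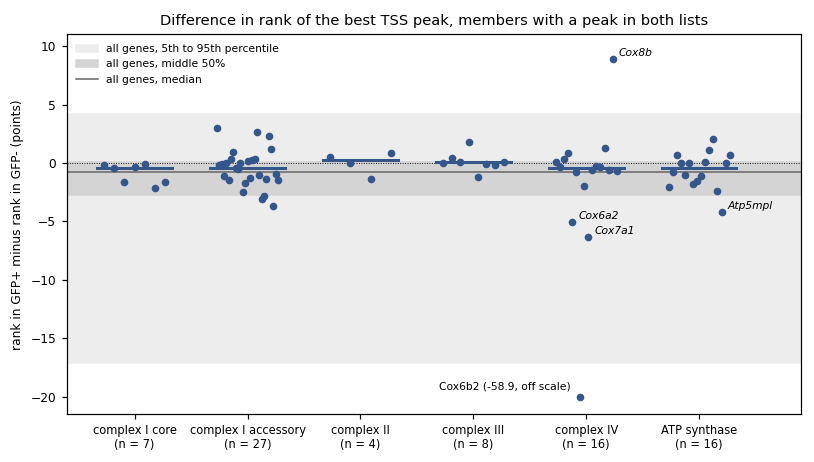
Rank in the GFP+ list minus rank in the GFP- list (vertical axis, points) for the 78 members with a TSS peak in both lists, 1 dot a gene, with the median of each group as a bar; grey bands and line give the spread and median over all 12802 genes with both peaks. Dots crowd between -5 and 5, with *Cox6b2* drawn at the lower edge and *Cox6a2*, *Cox7a1* and *Cox8b* outside that range.

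Complex IV was the most varied group: 16 of its 20 members had a TSS peak in both lists, and the genes with the widest differences belonged to it. *Cox4i1*, the main isoform of subunit 4, ranked 93.5 in the GFP- and 93.6 in the GFP+ list. *Cox5a* had ranks of 97.2 and 96.9, and *Cox5b* of 89.4 and 89.8. *Cox7c* stood at 89.96 and 91.3 and *Cox6c* at 80.97 and 79.005. *Cox7a2l*, which takes part in joining complexes III and IV into supercomplexes, had ranks of 95.1 and 94.9. *Cox7b*, an X-linked subunit, was low in both, at 65.3 and 65.0.

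*Cox4i2*, the isoform of subunit 4 linked to hypoxia and to lung, had a TSS peak of 281 bp at rank 45.2 in the GFP- list and none in the GFP+ list, where the nearest peak was 1351 bp beyond the gene. *Ndufa4l2*, an HIF target related to *Ndufa4*, had a TSS peak of 1745 bp at rank 75.4 and a further peak of 555 bp inside the gene at rank 74.7 in the GFP- list, and neither in the GFP+ list. Upstream of it, with the summit at -1933 bp from the start, the GFP- list had a peak of 2091 bp at rank 91.6, and the GFP+ list an overlapping peak of 1470 bp at rank 77.8. Its ubiquitous relative *Ndufa4* ranked 95.2 and 94.6. Genes of pericytes and smooth muscle differed in the same direction: 6 of 6 markers had TSS peaks in the GFP- list, at ranks 16.2 to 85.6, and 3 of 6 in the GFP+ list, at 49.1 to 76.1, with *Pdgfrb*, *Rgs5* and *Acta2* without one. So did fibroblast markers, with TSS peaks for 6 of 8 in the GFP- and 2 of 8 in the GFP+ list. The part of any of these cell types in the differences of *Cox4i2* and *Ndufa4l2* was not tested. In a mixed population a site open in fewer nuclei and a site less open in each nucleus cannot be told apart.

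*Cox6b2*, the testis isoform of subunit 6b, gave the largest difference of all members by area, -58.9 points. It was -42.3 by the -log10 p-value at the summit, -17.0 by area per bp and -12.0 when best TSS peaks alone were ranked. In both of the last settings other members differed by more. By area per bp *Cox7a1* differed by 56.5 points, in the opposite direction, and *Cox6c* fell from 60.2 to 39.5. Among best TSS peaks *Cox7a1* differed by -18.6 and *Cox8b* by 14.96 points. In the GFP- list the TSS peak of *Cox6b2* was 1069 bp long with an area of 1231 and rank 66.1, and in the GFP+ list 342 bp long with an area of 239.0 and rank 7.16. The second value lies close to 200.01, the smallest area of that list, so the gene was barely listed there. Peaks covered 71.6% of the gene in the GFP- and 11.2% in the GFP+ list. The ubiquitous *Cox6b1* ranked 84.7 and 83.97.

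The heart isoforms of subunits 6a, 7a and 8 were accessible in both populations. *Cox6a2* ranked 84.3 with a peak of 1017 bp in the GFP- list and 79.3 with 724 bp in the GFP+ list. *Cox7a1* ranked 92.2 with 3616 bp and 85.9 with 874 bp. *Cox8b* ranked 74.9 with 955 bp and 83.8 with 1715 bp. The first 2 were thus lower and the third higher in the GFP+ list. Their ubiquitous counterparts differed by less than 1 point: *Cox6a1* ranked 87.3 and 88.1, *Cox7a2* 92.1 and 91.5, and *Cox8a* 94.6 and 94.1. The median difference of the 3 heart isoforms, less that of the 3 ubiquitous ones, was -4.48 points. This contrast depends on how a peak is measured: it was -1.11 by the -log10 p-value at the summit, 0.56 by area per bp, and -0.13 when areas were summed over overlapping peaks of both lists.

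The lists divided these loci into peaks differently. Over *Cox7a1* the GFP- list had 1 peak that ran through the gene and past its end, and the GFP+ list had 2 peaks under it, at the start (rank 85.9) and around the 3' end (rank 69.3, 2048 bp). Over *Cox8b* the reverse held: the GFP- list had a peak at the start and another of 713 bp inside the gene (rank 48.3), and the GFP+ list joined them in 1 peak. When areas were summed over overlapping peaks of both lists, an alternative chosen after these peaks had been seen, *Cox7a1* went from 92.2 to 91.5 and *Cox8b* from 81.8 to 83.8, differences of -0.69 and 1.97 points. *Cox6a2*, with 1 peak in each list, differed by -5.03 points with and without this summing, but by -1.67 with lists of equal length and by 2.14, the opposite sign, by area per bp. By the -log10 p-value at the summit, which does not depend on peak length, the ranks were 88.2 and 81.6 for *Cox6a2*, 92.9 and 91.9 for *Cox7a1*, and 74.0 and 73.1 for *Cox8b*.

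**Figure D3:**
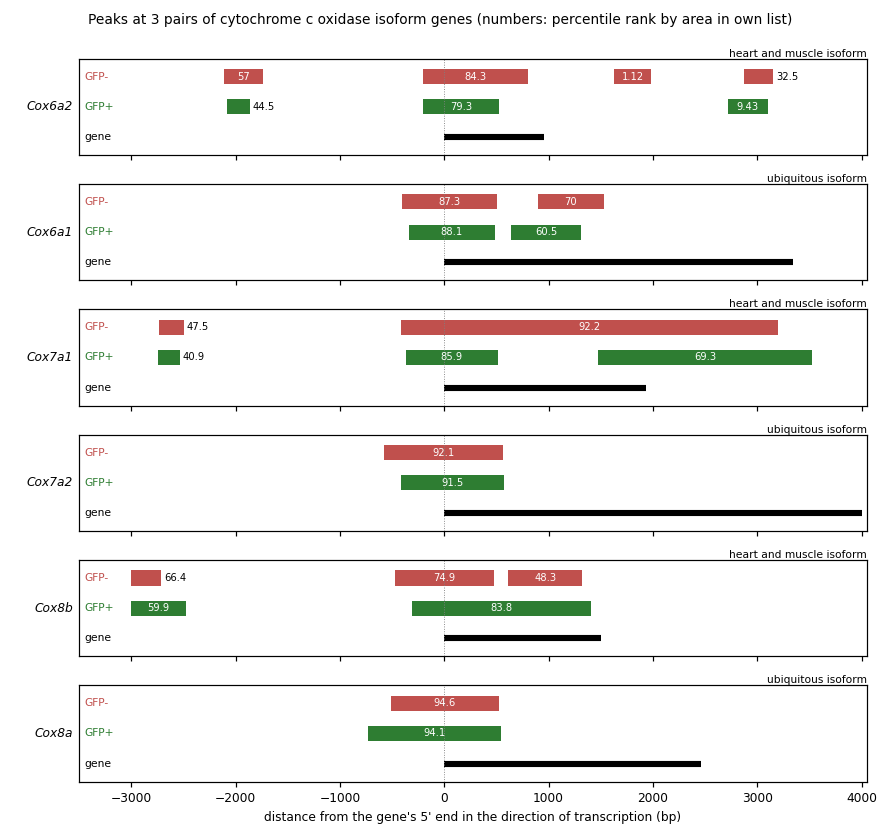
Peaks of the GFP- (upper bars) and GFP+ (lower bars) lists from 3000 bp before to 4000 bp after the 5' end of 6 isoform genes, with distance in bp along the direction of transcription, the gene as a black bar and each peak's percentile rank printed on or beside it; bars and genes are cut at the edges of the plot. The long GFP- peak over *Cox7a1* faces 2 GFP+ peaks, and the GFP- peaks over *Cox8b* face 1 GFP+ peak.

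The promoters of the isoform pairs differ in their content of CG dinucleotides (CpG), in which promoters of housekeeping genes are usually rich. RefSeq promoter entries (GRCm38.p6) were found for *Cox7a1*, *Cox7a2*, *Cox8b* and *Cox8a*, and the bases before both the RefSeq and the GENCODE start are shown because each stretch lies inside the gene's TSS peak in both lists. They are chr7:30183921-30184143 (plus strand), chr9:79759879-79760103 (minus), chr7:140900447-140900696 (minus) and chr19:7217617-7217866 (minus), 5′ to 3′, with every CG in capitals.
Cox7a1: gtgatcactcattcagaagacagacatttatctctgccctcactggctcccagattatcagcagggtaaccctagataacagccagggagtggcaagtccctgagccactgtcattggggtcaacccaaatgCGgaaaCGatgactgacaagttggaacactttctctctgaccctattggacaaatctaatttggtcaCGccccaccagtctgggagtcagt
Cox7a2: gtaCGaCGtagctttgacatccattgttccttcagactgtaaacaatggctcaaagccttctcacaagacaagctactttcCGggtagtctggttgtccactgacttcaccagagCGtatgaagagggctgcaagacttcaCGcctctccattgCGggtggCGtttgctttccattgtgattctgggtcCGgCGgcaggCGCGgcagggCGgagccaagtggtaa
Cox8b: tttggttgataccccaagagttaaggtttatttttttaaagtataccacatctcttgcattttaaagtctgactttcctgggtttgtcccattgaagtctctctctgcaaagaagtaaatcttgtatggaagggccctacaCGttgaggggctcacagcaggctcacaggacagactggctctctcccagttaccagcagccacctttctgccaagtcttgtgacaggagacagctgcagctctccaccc
Cox8a: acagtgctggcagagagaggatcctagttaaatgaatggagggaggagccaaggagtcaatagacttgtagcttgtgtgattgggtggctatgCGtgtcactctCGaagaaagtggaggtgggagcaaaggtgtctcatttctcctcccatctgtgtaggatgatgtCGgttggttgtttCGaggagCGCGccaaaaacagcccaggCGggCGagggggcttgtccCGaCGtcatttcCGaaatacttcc
The muscle isoform *Cox7a1* has 3 CG in 223 bases and its ubiquitous counterpart *Cox7a2* 12 in 225. *Cox8b* has 1 CG in 250 bases and *Cox8a* 11 in 250.

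The whole set can also be compared with all promoters. Of 84 members, 68 had a RefSeq promoter entry of 250 bases before to 50 after the start, and for 65 of these the start lay inside the TSS peak of both lists. Those without an entry included *Atp5a1*, *Atp5mpl*, *Cox4i1*, *Cox4i2*, *Cox6a2*, *Cox6c*, *Cox8c*, *Ndufa2*, *Ndufa4l2*, *Ndufb9*, *Ndufs1*, *Sdhc*, *Uqcrb*, *Uqcrc2* and *Uqcrq*. The ratio of observed to expected CpG had a median of 0.801 over these members and 0.604 over 16628 promoters, and it was at least 0.6 in 55 members (80.9%) against 50.5% of all promoters. The 16628 promoters include those of genes without a TSS peak. Whether the members differ from other promoters with a peak was not tested. The lowest ratios were those of *Cox8b* (0.115), *Cox7a1* (0.333), *Cox7b* (0.368) and *Cox6b2* (0.432), 3 of which hold some of the lowest ranks in the GFP- list. Other members with a ratio below 0.6 ranked high there, such as the ubiquitous *Ndufs8* (ratio 0.532, rank 96.1) and *Sdhb* (ratio 0.571, rank 96.3). GC content did not set the members apart, with a median of 57.2% against 57.0% over all promoters.

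**Figure D4:**
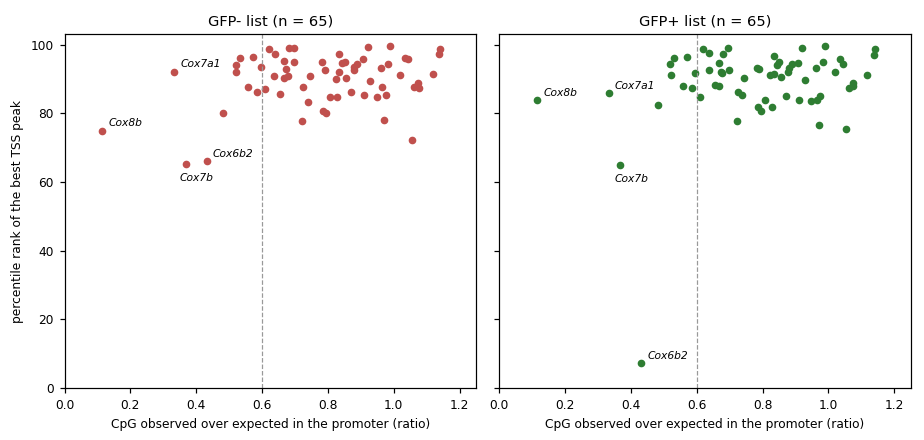
Percentile rank of the best TSS peak (vertical axis) against the ratio of observed to expected CpG in the promoter (horizontal axis; dashed line at 0.6) for the 65 members with both values, 1 panel a list. *Cox8b*, *Cox7a1*, *Cox7b* and *Cox6b2* are the points farthest to the left, and *Cox7b* and *Cox6b2* are the lowest points of both panels; members without a promoter entry or a peak are not drawn.

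Short motifs of factors known to act on respiratory genes were counted on both strands of the 68 promoters. The shares of all promoters beside them again include genes without a TSS peak. NRF1 (GCGCATGC) and YY1 (AAGATGGC) were found in 10 (14.7%, Wilson 95% interval 8.19 to 24.997%) and 9 members (13.2%, 7.12 to 23.3%), where 3.76% and 3.27% of all promoters held them. The word of the estrogen-related receptors (CAAGGTCA) was found in 4 (5.88% against 1.19%) and that of the ETS factor GABP (CCGGAAGT) in 5 (7.35% against 5.55%). SP1 (GGGCGGG) in 24 members (35.3% against 35.5%) and the CCAAT box (CCAATC) in 14 (20.6% against 18.9%) were about as common as in all promoters. MEF2 (CTAAAAATA) was in 0 of 68 (0.403% of all promoters), the muscle isoforms with an entry included. Matches of different words overlapped in 0 cases, while the NRF1 word, being close to a palindrome, often matched on both strands. A match is a string of letters and says nothing of binding.

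The position of the words differed. Of 9 YY1 matches, 8 began 22 to 38 bases after the start and 1 began 3 bases before it, whereas 13 of 15 NRF1 matches and 3 of 4 matches of the estrogen-related receptor word began before it. Windows of 30 bases show examples from each complex, 5′ to 3′ on the strand of the gene, with the word or its reverse complement in capitals. For NRF1 they are from *Cox6a1* (chr5:115349102-115349131, minus), *Sdhb* (chr4:140961206-140961235, plus), *Uqcrc1* (chr9:108936667-108936696, plus) and *Atp5g2* (chr15:102671071-102671100, minus).
Cox6a1: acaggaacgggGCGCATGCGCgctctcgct
Sdhb: aagcccagtggGCATGCGCcctacgggccg
Uqcrc1: gactccgctctGCGCATGCGCagcgcggct
Atp5g2: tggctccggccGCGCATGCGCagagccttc
For YY1 they are from *Ndufs7* (chr10:80249462-80249491, plus), *Ndufs4* (chr13:114388045-114388074, minus), *Ndufa9* (chr6:126849097-126849126, minus) and *Atp5f1* (chr3:105959248-105959277, minus).
Ndufs7: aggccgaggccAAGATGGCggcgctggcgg
Ndufs4: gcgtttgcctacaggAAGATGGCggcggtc
Ndufa9: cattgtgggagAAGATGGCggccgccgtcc
Atp5f1: atgtgcgagcgGCCATCTTgctcctgcccc
For the estrogen-related receptors all 4 are shown, *Sdhd* (chr9:50603800-50603829, minus), *Atp5g3* (chr2:73911360-73911389, minus), *Atp5l* (chr9:44920737-44920766, minus) and *Ndufs5* (chr4:123718396-123718425, minus).
Sdhd: tttccgggttgtagagTGACCTTGagccct
Atp5g3: ttgttacaaagTGACCTTGagcgtcttccc
Atp5l: gaggggcagccTGACCTTGgaaatggggaa
Ndufs5: tttctcgagtgTGACCTTGctcaagtagca
The ranks of these genes did not move together: *Ndufs5* and *Atp5l* went from 87.7 to 84.04 and from 90.3 to 87.9, and *Sdhd* and *Uqcrc1* from 91.1 to 92.0 and from 90.9 to 92.7.

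Many members share their promoter with another gene. In 31 of the 80 members with a TSS peak in the GFP- list (38.8%), that peak held the start of another protein-coding gene or reached within 250 bp of it, against 19.8% of all genes with such a peak. *Ndufb11* begins 3 bp from *Rbm10*, *Ndufs1* 3 bp from *Eef1b2*, which encodes an elongation factor, *Ndufa7* 10 bp from *Rps28*, a ribosomal protein gene, and *Sdhd* 98 bp from *Timm8b*, a mitochondrial import factor. A peak of such a pair cannot be given to either gene. The 31 shared peaks had median ranks of 93.3 and 93.3 in the GFP- and GFP+ lists and the 49 others 89.0 and 88.3, with median differences of -0.044 and -0.34 points.

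The 4 members without a TSS peak in either list were of 2 kinds. *Cox7b2* and *Cox8c* are testis isoforms, and the nearest peaks lay 58703 bp and 20070 bp away in the GFP- list and 109503 bp and 20081 bp away in the GFP+ list. *Atp5g1* and *Ndufa6* are ubiquitous subunits. Around *Ndufa6* the lists were empty over 95578 bp (GFP-) and 95636 bp (GFP+). Around *Atp5g1* they were empty over 62058 bp (GFP-) and 62027 bp (GFP+) with *Calcoco2* inside, and the last peak before it ended at base 96065000 of chromosome 11 in both lists. The study left blacklisted regions out of its calls, and whether these stretches are among them was not tested. A missing peak here is therefore no measurement of closed chromatin.

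Peaks covered little of most members beyond the promoter. The median share of the gene record under peaks was 11.3% (95% interval 8.26 to 15.5%) in the GFP- and 10.5% (8.05 to 13.3%) in the GFP+ list, beside 2.41% and 1.94% over all genes, but members are short, with a median length of 7245 bp against 17412.5 bp. Of the 83 members longer than 1000 bp, 49 in the GFP- and 46 in the GFP+ list had no peak beyond their first 1000 bp. At least 50% of the gene was covered for 7 members in the GFP- and 5 in the GFP+ list, against 2.44% and 2.12% of all genes. *Cox7a1* was covered to 100.0% in the GFP- and 50.03% in the GFP+ list, *Cox6a2* to 84.8% and 54.9%, and *Cox8b* to 79.5% and 93.9%. With 1000 bp added on each side of the gene, the differences between the lists shrank from -49.97 to -25.9 points for *Cox7a1*, from -29.9 to -20.8 for *Cox6a2* and from 14.4 to 1.34 for *Cox8b*. With *Ndufa4l2* (87.1% and 0%) these were the genes of highest coverage in the GFP- list, all of 2188 bp or less. *Atp5d*, of 7187 bp, was covered to 75.6% and 58.4%, and *Atp5k*, of 1205 bp, to 57.9% and 75.8%. The ubiquitous *Cox6a1* had 34.1% and 34.4%, *Cox7a2* 12.5% and 12.7%, and *Cox8a* 21.4% and 21.9%, in genes of 3340, 4518 and 2464 bp.

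**Figure D5:**
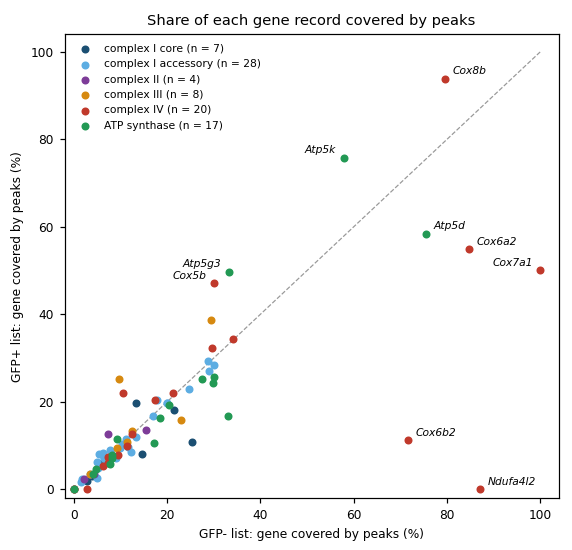
Share of each gene record covered by peaks (%) in the GFP- list (horizontal axis) and the GFP+ list (vertical axis), 1 dot for each of the 84 members coloured by complex; the dashed line marks equal shares. Most dots lie below 40% near the line; *Cox7a1*, *Cox6a2*, *Cox6b2* and *Ndufa4l2* lie below it and *Cox8b* and *Atp5k* above it.

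Outside the promoters, 115 peaks of the GFP- list lay in or within 10 kb of 58 members with their summit more than 1000 bp from any protein-coding start, and 109 of the GFP+ list near 59 members. Of the GFP- peaks 85 (73.9%, Wilson 95% interval 65.2 to 81.1%) overlapped a GFP+ peak, beside 66.9% for all genes, and of the GFP+ peaks 88 (80.7%, 72.3 to 87.0%) overlapped a GFP- peak, beside 84.2%. These flanking peaks were far weaker than the promoters, with median ranks of 47.3 and 40.9. The strongest without a partner in the other list was the peak inside *Ndufa4l2* at rank 74.7, followed by peaks at rank 72.1 upstream of *Ndufs8* and 69.3 downstream of *Uqcr10*, all from the GFP- list.

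The other genes of the pathway, assembly factors and electron carriers, were ranked in the same way. All but 1 of 49 genes held a TSS peak in each list, with median ranks of 91.3 and 90.9. In the GFP+ list 38 ranked lower and 10 higher, where 71.1% of all genes ranked lower. By more than 10 points 0 differed, against 8.53% of all genes lower and 2.56% higher. *Atpif1*, the inhibitor of the ATP synthase, had the widest difference, from 88.3 to 79.8, and *Ndufaf1*, an assembly factor of complex I, followed, from 70.5 to 62.7. The carrier *Cycs* (cytochrome c) ranked 97.5 and 97.2, and *Cyc1*, the cytochrome of complex III, 89.98 and 91.3. *Sdhaf1* had no TSS peak although peaks covered 61.1% and 58.2% of its record. For reference, 78 of 81 ribosomal protein genes had TSS peaks in each list, with medians of 91.0 and 90.8 and 60 lower in the GFP+ list, and all 19 genes of fatty acid oxidation did, with medians of 95.9 and 94.2 and 15 lower. These counts stand beside the same 71.1% of all genes, a share that depends on the length of the lists. Median differences were -0.28 points for the subunits, -0.54 for the assembly factors and carriers, -0.61 for ribosomal protein genes and -0.42 for fatty acid oxidation, with overlapping intervals for all 4 sets.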

How the data were processed

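ATAC-Seq libraries of GFP+ (n = 2) and GFP- (n = 2) nuclei were grouped by their sample labels. For these libraries the authors used fastp to trim, bowtie2 to map to mm10, samtools and Picard to remove reads of low mapping quality and duplicates, and downsampling to bring the libraries to an equal size. Their peaks are those of Genrich, run for ATAC-Seq on the replicates of a population jointly, without chromosomes M and Y and blacklisted regions. Submitters' processing notes name Bowtie2 2.3.5.1 and SAMtools 1.19. The deposited lists give each peak's area, a signal added up over its bases by the caller, and the -log10 p-value at its summit, with no values per replicate. The lists differ in length, which can shift every percentile rank in them.

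Genes and starts were those of GENCODE M21, without chromosomes Y and M, and promoters those of RefSeq. A TSS peak overlapped a start by at least 1 bp within 250 bp on either side. Flanking peaks, coverage and motif words were computed as described beside their values. Intervals were Wilson 95% intervals for shares and exact order-statistic 95% intervals for medians, and cover counting error or spread over genes only. The members and gene lists were chosen with earlier results of these data known. Genes named were the isoforms and their counterparts, members with a peak in 1 list or none, the 5 widest differences past 10 points in each direction, the 5 highest and lowest ranks of each list, the core subunits, and the 3 members of highest coverage in each list; assembly factors, further subunits, examples of shared starts and genes of motif windows were picked after their values had been seen. Some genes that the rule would name are not reported here. The alternatives changed the TSS window and definition, the ranking measure, the minimum area, the list length, the limits on differences and overlaps, and the gene borders. On simulated data, best peaks and coverage differed from a direct search in 0 of 2000 cases. Calculations used Python 3.11.15, numpy 2.4.6, pandas 2.3.3 and scipy 1.17.1.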

Additional observations from a re-analysis of the deposited data

How the results depend on the processing

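With 1 list a population, depth per replicate and differences between replicates are not analysed here, and a rank is relative to its own list. No paired analysis was possible because both replicates of a population were called into 1 list. Of 88 alternative values of the main results, 62 stayed within the interval, 5 points or 1.5 times the count of the value reported. For heart against ubiquitous isoforms, reported as -4.48 points, the limit of 5 points also passes values near 0. It counted -1.11 and -0.13 as unmoved, so for this contrast the tally does not measure stability. Another TSS window, the 5' end of the record and protein-coding transcripts alone moved none of them. Of 38 further values for single isoform genes, 22 moved by at most 5 rank points or 10 points of coverage, and 4 had the opposite sign.

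Ranking by -log10 p at the summit gave median ranks of 94.6 (GFP-) and 94.3 (GFP+), a median difference of -0.84 and 2 members lower by more than 10 points. Ranking by area per bp gave a median difference of -1.003, 7 members lower and 6 higher by more than 10 points, and 0.56 points for heart against ubiquitous isoforms. Among TSS peaks alone the median ranks were 52.1 and 57.1 with a median difference of 1.14, 26 members lower, and 2 lower and 3 higher by more than 10 points. An area of at least 500 gave medians of 86.2 and 86.1 and 1 member higher by more than 10 points. With lists of equal length the median difference was 1.14, 16 members were lower and 1 was higher by more than 10 points. The share of all genes past 10 points was not computed in any alternative setting, so such counts have no background there. Members lower in GFP+ thus made up 64.1% as reported, 74.4% by -log10 p, 56.4% by area per bp, 33.3% among TSS peaks and 20.5% with equal lists, against 71.1%, 74.0%, 63.1%, 51.5% and 36.4% of all genes; the cause was not tested beyond the number of peaks ranked. By area per bp *Cox6a2* differed by 2.14, *Cox7a1* by 56.5 and *Cox8b* by -10.01 points, and by -log10 p *Cox8b* differed by -0.89, all opposite in sign to the differences reported; the *Cox7a1* peak spanned 3616 bp in the GFP- and 874 bp in the GFP+ list, and the *Cox8b* peak 955 and 1715 bp. A rank of 0 for a missing peak gave 3 members lower by more than 10 points, and a limit of 5 points 3 lower and 1 higher. Of the 47 members with a peak of their own, an alternative added after seeing the data, 31 were lower. Without the first 1000 bp the median coverage was 0% in both lists, by construction for genes with a promoter peak alone.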
